A study of Mus musculus with 9 samples.

Results

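The genes examined here form the classical MHC class I presentation pathway of the mouse. They are the heavy chains H2-K1 and H2-D1, the light chain B2m, the peptide transporter genes Tap1 and Tap2, the peptide editors Tapbp and Tapbpl, the trimming enzyme Erap1 and the transcriptional regulator Nlrc5. They were taken by name, though with earlier results of these data known. They are 9 of the 50686 genes in each count table. All 9 were among the 13852 genes that passed the filter on low counts. RNA-seq was performed on lines labelled BCR/ABLp185+, derived from C57BL/6N bone marrow that a retrovirus carrying the BCR/ABL oncogene had transformed. The wt line carried both Stat5 genes, the Stat5a-/- line was labelled a knockout of Stat5a and the Stat5b-/- line a knockout of Stat5b, and all 3 carried the oncogene, which activates STAT5. Each genotype was 1 line with 3 technical replicates, which gave 9 libraries. Tests on these libraries therefore compare 3 cell lines and measure the spread between libraries of a line, and an effect of the genotype and a peculiarity of 1 line cannot be told apart. The question was how the 2 knockout lines differed from wt and from each other.

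MHC class I molecules display peptides from inside the cell to cytotoxic T cells. Peptides cut by the proteasome are pumped into the endoplasmic reticulum by the TAP transporter, trimmed there by ERAP1 and loaded onto a heavy chain paired with beta-2-microglobulin, with the help of tapasin and general chaperones. The genes are known to rise together after interferon, through interferon regulatory factors and through NLRC5, a coactivator that reaches the class I promoters through factors bound to their X and Y boxes.

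The libraries held between 11948136 and 19016396 counted reads, and a member had between 133 reads (Tapbpl in a wt library) and 58471 (B2m in a Stat5b-/- library). Values are given as normalised CPM, the count of a gene per library total after TMM scaling. The knocked-out genes were lowest in the lines labelled with them but kept reads. Stat5a lay at 36.0 to 48.2 normalised CPM in wt, 11.8 to 13.6 in the Stat5a-/- line and 72.2 to 91.7 in the Stat5b-/- line, and Stat5b at 103 to 107, 124 to 156 and 58.5 to 72.3. The description field of the knockout samples names wt cells, whereas their titles, source names and genotype labels name the knockouts, and the groups follow the latter. Markers of B-lineage cells were high in all 3 lines and differed between them. Their sums over 10 genes were 4722 to 5026 normalised CPM in wt, 6558 to 7278 in Stat5a-/- and 5789 to 6635 in Stat5b-/-. The exception was the recombinase gene Rag1, with a mean of 64.7 in wt but 0.158 in Stat5a-/- and 0.667 in Stat5b-/-. Markers of T cells were also present and differed between the lines, with sums over 16 genes from 861 to 1174 in wt, 1524 to 1763 in the Stat5a-/- line and 1926 to 2734 in the Stat5b-/- line. None of the 16 was at 0 in a line. In bulk RNA, more cells of a type and more RNA per cell cannot be told apart.

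Every member was higher in both knockout lines than in wt. In Stat5b-/- against wt, 9 of 9 members passed as higher at an adjusted p under 0.05, where 24.2% of all tested genes did, and 7 of 9 were also past 2-fold, where 10.6% were. In Stat5a-/- against wt, 9 of 9 members passed as higher, against 19.8% of all tested genes, and 5 of 9 were past 2-fold, against 7.75%. Of the 5 members on chromosome 17, 4 were past 2-fold in Stat5a-/-, and 1 was when they were scaled on genes of that chromosome, where Tap2 also lost its call. The median log2 fold change of the members was 1.51 in Stat5b-/- and 1.08 in Stat5a-/-, beside 0.02 and 0.01 for all tested genes. Both comparisons use the same wt libraries, so they are given side by side and are not independent of each other. The 3 libraries of the knockout line lay above all 3 wt libraries for 9 members in Stat5b-/-, where 27.4% of tested genes did so, and for 8 members in Stat5a-/-, where 25.5% did. Erap1 was the member whose Stat5a-/- and wt libraries overlapped. Between the knockout lines, 4 of 9 members were higher in Stat5b-/- (16.4% of all tested genes) and 0 were lower (17.5%), while 7 were higher with an offset for GC content. Of the 5 members on chromosome 17, 1 was higher in this comparison, and 4 were when scaled on genes of that chromosome. The 4 members were Nlrc5, Tapbpl, Tap1 and Erap1, and Nlrc5 alone was past 2-fold, where 4.81% of tested genes were. For 6 of 9 members all Stat5b-/- libraries lay above all Stat5a-/- libraries, against 22.3% of tested genes. Adjusted p-values here and below were computed with the quasi-likelihood test of edgeR and adjusted by the Benjamini-Hochberg method over all tested genes, and 95% intervals of single fold changes are not adjusted.

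**Figure D1:**
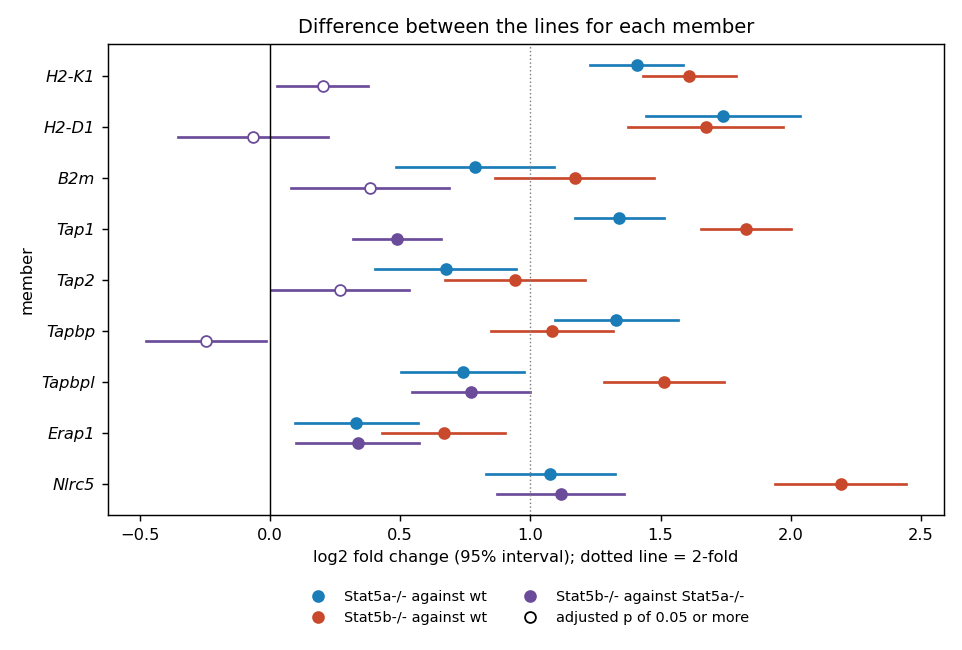
Log2 fold change (x axis) of each member (y axis) in Stat5a-/- against wt, Stat5b-/- against wt and Stat5b-/- against Stat5a-/-, with its 95% interval as a line; filled points have an adjusted p under 0.05 (edgeR). The 9 members lie right of 0 in both comparisons with wt, from 0.33 (Erap1 in Stat5a-/-) to 2.19 (Nlrc5 in Stat5b-/-), while the direct comparison runs from -0.25 (Tapbp) to 1.12 (Nlrc5), and its negative values for Tapbp and H2-D1 turn positive when scaled on chromosome 17 genes.

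The heavy chains carry the peptide groove and are the polymorphic part of the class I molecule. H2-K1 (ENSMUSG00000061232.15, chromosome 17 from 33996017 to 34000333 of GRCm38) had 283, 268.5 and 277 normalised CPM in the wt libraries, 689.5, 739 and 770.1 in Stat5a-/-, and 835, 858 and 835 in Stat5b-/-. No library of one line reached into the range of another, and the wt libraries were the low ones. H2-K1 was 3.05-fold higher in Stat5b-/- than in wt (95% interval 2.70 to 3.46, log2 fold change 1.61, standard error 0.09, adjusted p = 1.51e-08 with edgeR). In Stat5a-/- it was 2.66-fold higher (2.35 to 3.00, log2 fold change 1.41, standard error 0.09, adjusted p = 6.03e-08 with edgeR). Between the knockout lines the fold was 1.15 (1.02 to 1.30) and the adjusted p was 0.1 (edgeR), so the gap between those lines did not pass although the libraries did not overlap. It passed when scaled on chromosome 17 genes (log2 fold change 0.66, adjusted p = 4.58e-05, edgeR) and with an offset for GC content (adjusted p = 0.0126). On the chromosome 17 scale the rise of H2-K1 in Stat5a-/- was 0.89, no longer past 2-fold.

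H2-D1 (ENSMUSG00000073411.11, chromosome 17 from 35262730 to 35267499) encodes the other classical heavy chain of this background. It had 186, 135 and 152 normalised CPM in wt, 479.8, 466.5 and 632 in Stat5a-/-, and 552, 515 and 439.8 in Stat5b-/-. Every knockout library lay above every wt library, and the libraries of the knockout lines overlapped. H2-D1 was 3.19-fold higher in Stat5b-/- (2.60 to 3.92, log2 fold change 1.67, standard error 0.15, adjusted p = 1.33e-06 with edgeR). The Stat5a-/- line exceeded wt by 3.34-fold (2.72 to 4.10, log2 fold change 1.74, standard error 0.15, adjusted p = 1.08e-06 with edgeR). This was the largest rise of a member in Stat5a-/-. The fold of Stat5b-/- over Stat5a-/- was 0.955 with an interval from 0.782 to 1.17 (adjusted p = 0.758, edgeR), and its sign changed when the third Stat5a-/- or the third Stat5b-/- library was left out, with the T cell marker covariate and when scaled on chromosome 17 genes. Reads that map to several places are dropped by the counter's default, so the counts of H2-K1 and H2-D1 hold only reads that separate them from each other and from the other H2 genes.

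The light chain B2m (ENSMUSG00000060802.8, chromosome 2 from 122147686 to 122153083) pairs with every class I heavy chain and is needed for its export to the surface. It was the most abundant member, with 1458, 1972 and 1778 normalised CPM in wt, 3105, 3447 and 2431 in Stat5a-/-, and 3767, 3498 and 4454 in Stat5b-/-. The ranges of the 3 lines did not overlap, and Stat5b-/- was the high one. B2m was 2.25-fold higher in Stat5b-/- (1.82 to 2.78, log2 fold change 1.17, standard error 0.16, adjusted p = 4.65e-05 with edgeR). In Stat5a-/- the rise was 1.725-fold (1.40 to 2.13, log2 fold change 0.79, standard error 0.16, adjusted p = 0.00134 with edgeR). Between the knockout lines the fold was 1.30 (1.06 to 1.61) with an adjusted p of 0.0725 (edgeR), which misses the threshold. With the T cell marker sum of each library as a covariate, B2m no longer passed in either comparison with wt, with log2 fold changes of 0.22 in Stat5b-/- (adjusted p = 0.731, edgeR) and 0.25 in Stat5a-/- (adjusted p = 0.458, edgeR).

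Promoter sequence was read for the members that RefSeq's table holds, 6 of 9, as the 250 bases before each start (GRCm38.p6). The windows of H2-K1, B2m and Tap1 are printed as planned. That of Nlrc5 was also planned but is not held there, and the window of H2-D1 was added. Capitals mark the matches of the searched letters on either strand. These were the interferon-stimulated response element (ISRE) type, TTCNNNGAA (the STAT-bound GAS type), the NF-kappaB type and, chosen after these sequences had been read, the NF-kappaB palindrome of the H2 enhancer (the longest run of capitals in the first 2 windows), TTTCACTT (part of the H2 interferon response sequence), TGACG (X2 box core) and ATTGG (Y box core). The first line is H2-K1 (chr17:34000334-34000583, minus strand), the second H2-D1 (chr17:35262844-35263093, plus strand), the third B2m (chr2:122147437-122147686, plus strand) and the fourth Tap1 (chr17:34187306-34187555, plus strand).
H2-K1: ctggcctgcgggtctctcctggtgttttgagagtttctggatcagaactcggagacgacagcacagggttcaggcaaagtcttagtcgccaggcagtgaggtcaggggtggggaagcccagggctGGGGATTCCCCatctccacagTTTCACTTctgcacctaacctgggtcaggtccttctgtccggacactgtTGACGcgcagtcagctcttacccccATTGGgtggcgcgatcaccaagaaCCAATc
H2-D1: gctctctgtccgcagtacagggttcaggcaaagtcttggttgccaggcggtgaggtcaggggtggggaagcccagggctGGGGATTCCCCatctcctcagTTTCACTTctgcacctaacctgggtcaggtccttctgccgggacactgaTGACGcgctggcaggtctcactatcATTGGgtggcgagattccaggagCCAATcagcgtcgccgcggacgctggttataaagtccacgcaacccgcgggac
B2m: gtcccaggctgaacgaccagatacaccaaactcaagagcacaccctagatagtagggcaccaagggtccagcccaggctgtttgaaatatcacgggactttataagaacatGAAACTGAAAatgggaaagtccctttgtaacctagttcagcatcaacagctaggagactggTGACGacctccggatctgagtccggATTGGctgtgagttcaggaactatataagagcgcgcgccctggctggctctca
Tap1: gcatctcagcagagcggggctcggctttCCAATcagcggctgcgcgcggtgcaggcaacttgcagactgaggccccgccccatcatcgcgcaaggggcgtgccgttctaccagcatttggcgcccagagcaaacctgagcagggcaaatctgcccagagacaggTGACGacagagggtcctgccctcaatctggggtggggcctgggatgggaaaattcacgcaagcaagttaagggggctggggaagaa

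The H2-K1 and H2-D1 windows share an unbroken run of 47 bases, which starts 201 bases before the H2-D1 start and holds the palindrome. In the printed H2-K1 window the palindrome lies 125 to 115 bases and TTTCACTT 104 to 97 bases before the start, followed by TGACG and ATTGG, and H2-D1 has the 4 in the same order. The palindrome was found in 0.0304% of the 32851 promoter windows of the table and in 2 of the 6 members, TTTCACTT in 1.36% and in the same 2. TGACG and ATTGG were both in 1 window for H2-K1, H2-D1, B2m and Tap1, 4 of the 6 members, and in 6.12% of all windows. In H2-K1, H2-D1 and B2m, ATTGG followed TGACG on the strand of the gene. In Tap1, ATTGG matched only on the opposite strand, 222 to 218 bases before the start, ahead of TGACG at 86 to 82 bases. TGACG alone was in 17.8% and ATTGG alone in 33.8% of windows. B2m held the only match of the ISRE type, the longest run of its capitals, on the opposite strand 139 to 130 bases before the start, where 2.98% of windows had one. No member window held TTCNNNGAA or the NF-kappaB type first searched, which were in 7.02% and 0.32% of windows. A match of letters is a description of the sequence and shows no binding.

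TAP1 and TAP2 together form the pump that carries peptides into the endoplasmic reticulum. Tap1 (ENSMUSG00000037321.17, chromosome 17 from 34187553 to 34197225) had 59.1, 56.1 and 56.3 normalised CPM in wt, 139, 143 and 152 in Stat5a-/-, and 201, 204 and 203.5 in Stat5b-/-. The 3 lines were fully separate, in the order wt, Stat5a-/-, Stat5b-/-. Tap1 was 3.55-fold higher in Stat5b-/- (3.15 to 4.01, log2 fold change 1.83, standard error 0.09, adjusted p = 3.59e-09 with edgeR). Its rise in Stat5a-/- was 2.53-fold (2.25 to 2.85, log2 fold change 1.34, standard error 0.09, adjusted p = 6.77e-08 with edgeR). Stat5b-/- also exceeded Stat5a-/-, by 1.40-fold (1.25 to 1.57, log2 fold change 0.49, standard error 0.09, adjusted p = 0.000742 with edgeR). Scaled on chromosome 17 genes, the log2 fold change of Tap1 was 0.82 in Stat5a-/- against wt, no longer past 2-fold, and 0.95 between the knockout lines. On the opposite strand, 212 exon bases of Psmb9 overlap those of Tap1, which is 3.87% of its exon length, and Psmb9 rose as well.

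Tap2 (ENSMUSG00000024339.12, chromosome 17 from 34203527 to 34216321) had smaller fold changes than its partner. It had 27.4, 21.4 and 22.1 normalised CPM in wt, 35.2, 34.9 and 43.0 in Stat5a-/-, and 50.3, 45.8 and 39.8 in Stat5b-/-. The knockout libraries lay above the wt libraries and overlapped each other. Tap2 was 1.92-fold higher in Stat5b-/- (1.60 to 2.31, log2 fold change 0.94, standard error 0.14, adjusted p = 9.65e-05 with edgeR). In Stat5a-/- it was 1.60-fold higher (1.32 to 1.92, log2 fold change 0.67, standard error 0.14, adjusted p = 0.00173 with edgeR). The fold between the knockout lines was 1.20 (1.00 to 1.45, adjusted p = 0.146, edgeR). Scaled on chromosome 17 genes, the Stat5a-/- call was lost (log2 fold change 0.16, adjusted p = 0.305) and Stat5b-/- exceeded Stat5a-/- (0.73, adjusted p = 0.000406). The ratio of Tap1 to Tap2, on values per exon length, was 1.49, 1.81 and 1.76 in wt, 2.74, 2.83 and 2.44 in Stat5a-/-, and 2.76, 3.08 and 3.53 in Stat5b-/-. All knockout libraries had a higher ratio than all wt libraries, and the ratio itself was not tested. Exons of Gm15821 on the other strand cover 14.1% of Tap2.

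Tapasin, encoded by Tapbp, holds the empty class I molecule at the transporter and favours tightly bound peptides. Tapbp (ENSMUSG00000024308.14, chromosome 17 from 33915899 to 33929288) had 123, 99.8 and 105 normalised CPM in wt, 246, 285 and 295 in Stat5a-/-, and 258, 231.5 and 207 in Stat5b-/-. Both knockout lines lay above wt, with Stat5a-/- reaching higher than Stat5b-/- and the 2 overlapping. Tapbp was 2.12-fold higher in Stat5b-/- (1.80 to 2.49, log2 fold change 1.08, standard error 0.12, adjusted p = 8.71e-06 with edgeR). Its log2 fold change was 0.98 with an offset for GC content and 0.97 without Stat5b-/- replicate 1, both under 2-fold, which left 6 rather than 7 members past 2-fold. The Stat5a-/- value was 2.51-fold that of wt (2.13 to 2.96, log2 fold change 1.33, standard error 0.12, adjusted p = 1.58e-06 with edgeR). The fold of Stat5b-/- over Stat5a-/- was 0.843 (0.718 to 0.990) and did not pass (adjusted p = 0.127, edgeR), and it turned above 1 when scaled on chromosome 17 genes, where the rise in Stat5a-/- was 0.81 on the log2 scale and no longer past 2-fold. Exons of Gm19412 on the other strand cover 20.2% of Tapbp.

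Tapbpl (ENSMUSG00000038213.7, chromosome 6 from 125223933 to 125231860) encodes TAPBPR, a tapasin-related editor that works on class I molecules outside the transporter complex. It was the member with the fewest reads, with 8.44, 8.43 and 9.70 normalised CPM in wt, 14.4, 14.9 and 15.15 in Stat5a-/-, and 26.3, 24.0 and 25.7 in Stat5b-/-. The 3 lines did not overlap, and the libraries of a line differed by little. Tapbpl was 2.86-fold higher in Stat5b-/- (2.43 to 3.35, log2 fold change 1.51, standard error 0.12, adjusted p = 3.11e-07 with edgeR). In Stat5a-/- it was 1.67-fold higher (1.42 to 1.97, log2 fold change 0.74, standard error 0.12, adjusted p = 0.0003 with edgeR). Between the knockout lines it was 1.71-fold higher in Stat5b-/- (1.46 to 2.00, log2 fold change 0.77, standard error 0.12, adjusted p = 0.000212 with edgeR). The mean of Tapbpl was highest in Stat5b-/-, while that of Tapbp was highest in Stat5a-/- by a difference that did not pass. Per exon length, Tapbp exceeded Tapbpl by a ratio of 8.88 ± 1.39 in wt (SD, n = 3), 13.3 ± 0.937 in Stat5a-/- and 6.55 ± 0.694 in Stat5b-/-, with no overlap between the knockout lines. Tapbp lies on chromosome 17 and Tapbpl does not, and on the chromosome 17 scale the log2 fold change of Tapbp in Stat5a-/- was 0.81, beside 0.74 for Tapbpl scaled on all genes. The tested genes of chromosome 6, which holds Tapbpl, had a median log2 fold change of 0.22 in Stat5b-/- and 0.09 in Stat5a-/- against wt.

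ERAP1 trims the amino-terminal end of peptides in the endoplasmic reticulum to the length that fits the groove. Erap1 (ENSMUSG00000021583.6, chromosome 13 from 74639872 to 74691875) had 140.3, 172 and 152 normalised CPM in wt, 214, 203 and 166 in Stat5a-/-, and 225, 243 and 268 in Stat5b-/-. The third Stat5a-/- library lay below the second wt library, and all Stat5b-/- libraries lay above all others. Erap1 was 1.59-fold higher in Stat5b-/- (1.35 to 1.87, log2 fold change 0.67, standard error 0.12, adjusted p = 0.00056 with edgeR). On the scale of all genes its rise in Stat5a-/- was the smallest of any member, 1.26-fold (1.07 to 1.48, log2 fold change 0.33, standard error 0.12, adjusted p = 0.047 with edgeR). Stat5b-/- exceeded Stat5a-/- by 1.26-fold (1.07 to 1.49, log2 fold change 0.34, adjusted p = 0.0465 with edgeR). The Stat5a-/- call was lost without wt replicate 1 or 3, Stat5a-/- replicate 1 or 2, or Stat5b-/- replicate 1 or 2, with adjusted p from 0.0505 to 0.206 (edgeR), and with RLE in place of TMM factors (0.0508), and the call between the knockout lines without wt replicate 3, Stat5a-/- replicate 2 or 3, or Stat5b-/- replicate 2 or 3, from 0.0727 to 0.14. With the T cell marker sum as a covariate the 3 log2 fold changes of Erap1 were 0.25 in Stat5b-/- against wt (adjusted p = 0.667, edgeR), 0.10 in Stat5a-/- against wt (adjusted p = 0.779) and 0.16 between the knockout lines (adjusted p = 0.609).

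NLRC5 is the coactivator of the class I genes. Nlrc5 (ENSMUSG00000074151.13, chromosome 8 from 94434356 to 94527272) had 34.4, 34.5 and 34.0 normalised CPM in wt, 65.9, 66.6 and 84.9 in Stat5a-/-, and 171, 166 and 134 in Stat5b-/-. The lines were fully separate, and the lowest Stat5b-/- library lay well above the highest Stat5a-/- library. Nlrc5 was 4.57-fold higher in Stat5b-/- (3.84 to 5.45, log2 fold change 2.19, standard error 0.13, adjusted p = 2.03e-08 with edgeR), the largest rise of a member. In Stat5a-/- it was 2.11-fold higher (1.78 to 2.51, log2 fold change 1.08, standard error 0.13, adjusted p = 1.7e-05 with edgeR). Of the members, Nlrc5 also differed most between the knockout lines, by 2.17-fold (1.83 to 2.57, log2 fold change 1.12, standard error 0.12, adjusted p = 1.67e-05 with edgeR). Without the third Stat5a-/- library its rise in Stat5a-/- was 0.92 on the log2 scale.

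**Figure D2:**
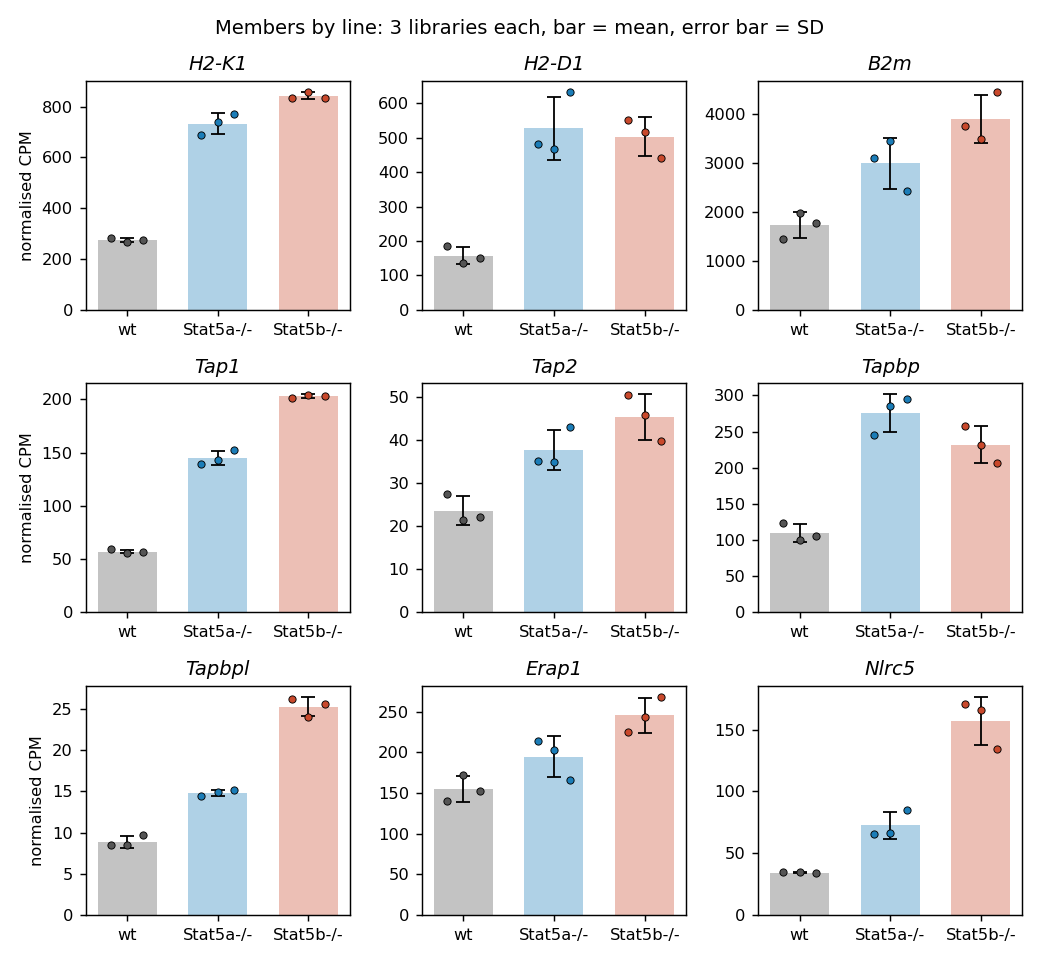
Normalised CPM (y axis, from 0) of the 9 members in the wt, Stat5a-/- and Stat5b-/- lines; points are the 3 libraries of a line, bars their mean and error bars the SD. All knockout libraries stand above the wt libraries except for Erap1, where the lowest Stat5a-/- library (166) is below the highest wt library (172), and Tapbp and H2-D1 have higher means in Stat5a-/- than in Stat5b-/- (275 against 232 and 526 against 502), an order that turns when they are scaled on chromosome 17 genes.

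The members kept nearly the same order of abundance in each line. On normalised RPKM, the normalised CPM per kilobase of exon length, B2m led with 2018 ± 302 in wt (SD, n = 3), 3482 ± 601 in Stat5a-/- and 4542 ± 573 in Stat5b-/-. H2-K1 followed with 106 ± 2.74, 281 ± 15.6 and 323 ± 5.03, and H2-D1 with 61.1 ± 9.97, 204 ± 35.7 and 195 ± 22.2. Each of these 3 lay above the next in every library of its line. Erap1 and Tapbp came next and overlapped in wt (38.5 ± 3.94 and 33.2 ± 3.75) and in Stat5b-/- (61.2 ± 5.36 and 70.4 ± 7.75), while Tapbp lay above Erap1 in Stat5a-/- (83.5 ± 7.93 against 48.4 ± 6.29). Tap1 was the sixth in every line, with 10.4 ± 0.306, 26.5 ± 1.18 and 37.1 ± 0.295. At the low end, Nlrc5 lay at 4.04 ± 0.0319 in wt, below Tap2 (6.25 ± 0.872) and overlapping with Tapbpl (3.77 ± 0.311). In Stat5b-/- Nlrc5 reached 18.5 ± 2.32 and stood above Tap2 (11.99 ± 1.39), which overlapped with Tapbpl (10.8 ± 0.502). The folds of the heavy chains over wt were larger than those of the light chain, and the ratio of B2m to H2-K1 plus H2-D1 on this scale was 9.40, 14.8 and 12.5 in wt, 8.02, 8.64 and 5.23 in Stat5a-/-, and 8.20, 7.70 and 10.6 in Stat5b-/-. The Stat5a-/- range lay below that of wt, the Stat5b-/- range overlapped with it, and the ratio was not tested. It sets a gene of chromosome 2 against 2 of chromosome 17, and on the chromosome 17 scale the log2 fold changes of H2-K1 (0.89) and H2-D1 (1.22) in Stat5a-/- were closer to that of B2m (0.79, scaled on all genes). The ratio of H2-K1 to H2-D1 overlapped between all lines, at 1.76 ± 0.232 in wt, 1.40 ± 0.182 in Stat5a-/- and 1.67 ± 0.192 in Stat5b-/-.

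B2m and Erap1 differ from the other members in GC content, and they often deviated the other way within a line. The exons of B2m and Erap1 have 41.2% and 41.5% GC and those of the other members 52.4% to 58.4%, where the median of all tested genes is 49.9%. Stat5a-/- replicate 3 had the lowest B2m and Erap1 of its line and the highest value of the other 7 members. Stat5b-/- replicate 3 had the highest B2m and Erap1 of its line and the lowest value of the others except Tap1 and Tapbpl. In wt, B2m and Erap1 were lowest in replicate 1 and highest in replicate 2, and Tapbpl and Nlrc5 did not run against them. Across the tested genes (genes are no independent replicates) the deviation of a library from its line's mean correlated with GC content with r of 0.62 in Stat5a-/- replicate 3, -0.54 in Stat5b-/- replicate 3, 0.56 in wt replicate 1 and -0.58 in wt replicate 2. With an offset for this trend, an alternative chosen after seeing the data, all 9 members remained higher in both knockout lines than in wt, and 7 rather than 4 were higher in Stat5b-/- than in Stat5a-/-. The 3 added ones were H2-K1 (adjusted p = 0.0126, edgeR), B2m (0.046) and Tap2 (0.000939). With that offset and the replicate number as a block 5 were higher, since B2m (adjusted p = 0.101) and Erap1 (0.0772) did not pass.

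H2-K1, H2-D1, Tap1, Tap2 and Tapbp lie on chromosome 17, and genes of that chromosome were higher as a whole in the Stat5a-/- line. The median log2 fold change of its 677 tested genes was 0.53 in Stat5a-/- against wt, where 56.1% passed as higher, and -0.03 for the 11880 tested genes of autosomes 1 to 16. In Stat5b-/- against wt the chromosome 17 median was 0.14, and in Stat5b-/- against Stat5a-/- it was -0.42. Chromosomes 18 and 19 were also high in Stat5a-/- against wt, with medians of 0.43 and 0.41. Around the members, the 81 tested genes within 500 kb that are no H2 genes had a median of 0.58 in Stat5a-/- and 0.09 in Stat5b-/- against wt. The cause of this shift was not tested. Among the 677 genes, the 5 members ranked between 44 (H2-D1) and 248 (Tap2) by their fold change on the scale of all genes in Stat5a-/- against wt, and between 26 (Tap1) and 99 (Tap2) in Stat5b-/- against wt.

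**Figure D3:**
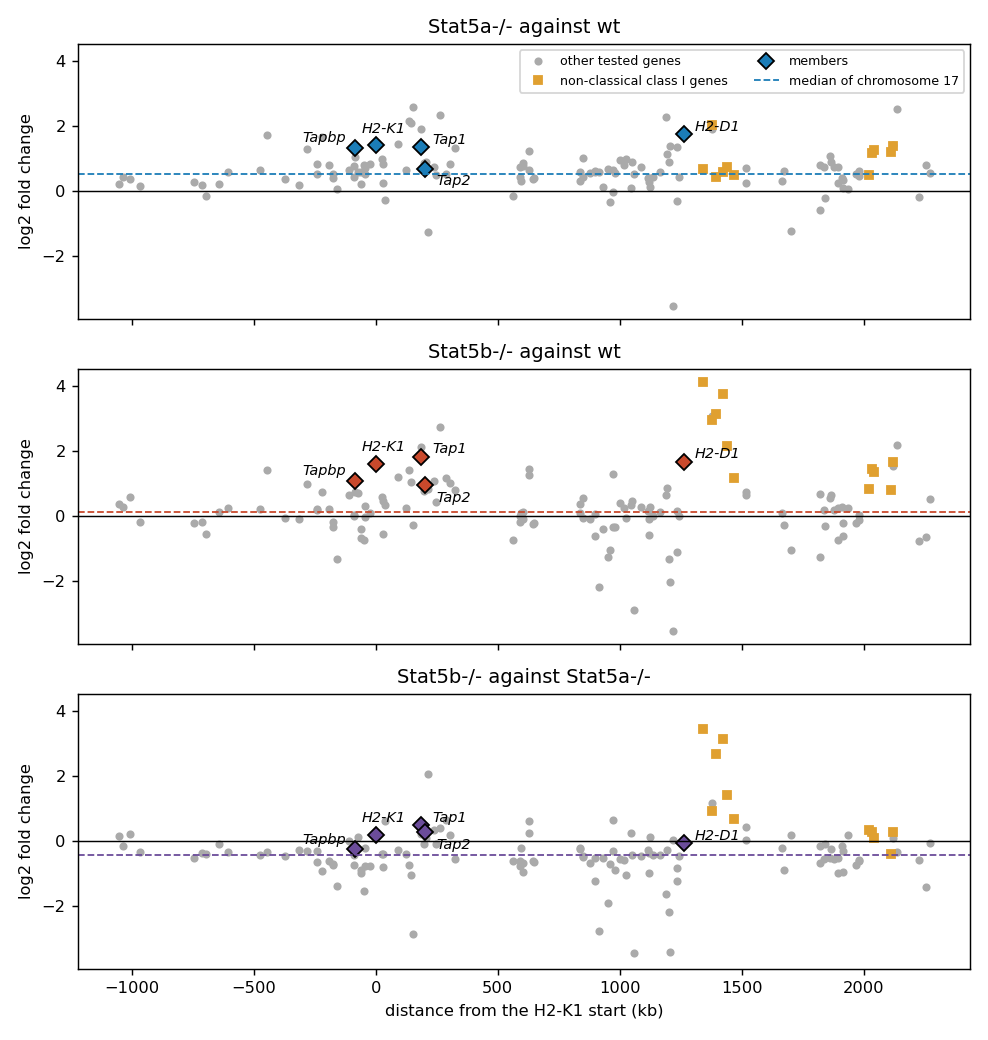
Log2 fold change (y axis) of tested genes around the members on chromosome 17 against their distance from the H2-K1 start in kb (x axis), for Stat5a-/- against wt, Stat5b-/- against wt and Stat5b-/- against Stat5a-/-; the dashed line is the median of all 677 tested genes of the chromosome. The grey neighbours gather above 0 in Stat5a-/- (dashed line at 0.53), near 0 in Stat5b-/- (0.14) and below 0 in the direct comparison (-0.42), where H2-K1, Tap1 and Tap2 lie above 0 and H2-D1 and Tapbp lie below 0, but above it when scaled on the chromosome.

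The 5 members were therefore also fitted with scaling factors from 538 chromosome 17 genes more than 1 Mb away from any of them, which moved the median of all tested genes to -0.51 in Stat5a-/- against wt, -0.04 in Stat5b-/- against wt and 0.48 in Stat5b-/- against Stat5a-/-. Relative to their chromosome, H2-D1 (log2 fold change 1.22, adjusted p = 1.08e-05), H2-K1 (0.89, adjusted p = 2.56e-06), Tap1 (0.82, adjusted p = 4.35e-06) and Tapbp (0.81, adjusted p = 5.17e-05) were still higher in Stat5a-/- than in wt (edgeR). Tap2 was not (0.16, adjusted p = 0.305), and H2-D1 alone stayed past 2-fold. In Stat5b-/- against wt the values hardly moved, from 0.88 for Tap2 to 1.77 for Tap1, and all 5 passed. In the direct comparison, on this scale 4 of the 5 were higher in Stat5b-/- than in Stat5a-/-, namely Tap1 (0.95, adjusted p = 1.97e-06), Tap2 (0.73, adjusted p = 0.000406), H2-K1 (0.66, adjusted p = 4.58e-05) and H2-D1 (0.39, adjusted p = 0.0237), against Tap1 alone on the scale of all genes. The sign of H2-D1 and Tapbp turned, and Tapbp did not pass (0.21, adjusted p = 0.114). The 4 members that lie on none of the chromosomes 17, 18 and 19, B2m, Tapbpl, Erap1 and Nlrc5, were higher in both knockout lines on the scale of all genes. Chromosome 6, which holds Tapbpl, had the highest median log2 fold change of any chromosome in Stat5b-/- against wt, at 0.22.

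**Figure D4:**
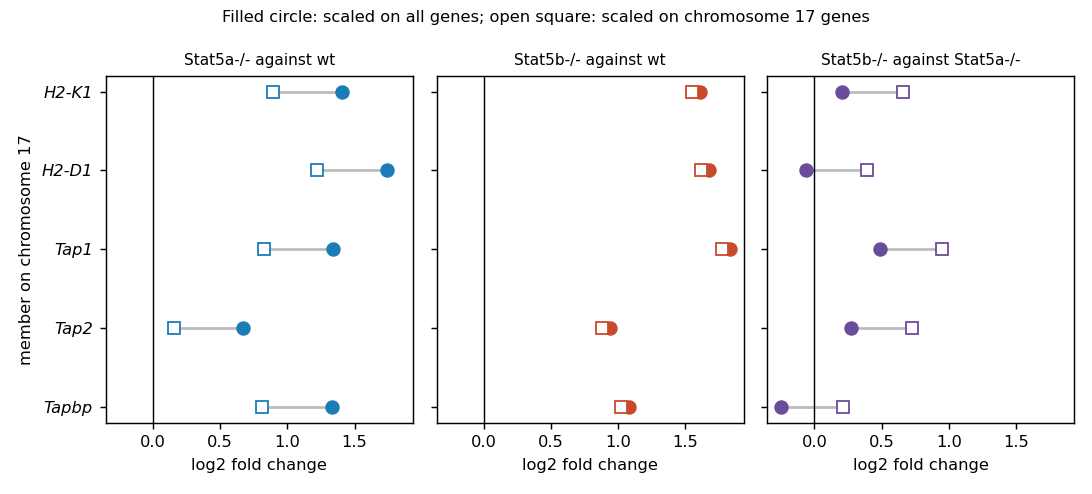
Log2 fold change (x axis) of the 5 members on chromosome 17 (y axis), scaled on all genes (filled circles) and on distant genes of chromosome 17 (open squares). In Stat5a-/- against wt the squares lie left of the circles (H2-K1 from 1.41 to 0.89), in Stat5b-/- against wt they nearly coincide (1.61 and 1.55), and in Stat5b-/- against Stat5a-/- they lie to the right (0.20 and 0.66), with H2-D1 and Tapbp crossing 0.

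Other genes of the pathway were examined by list. The general chaperones and translocation genes of the endoplasmic reticulum showed no common rise. Of 16 tested, 2 passed as higher and 6 as lower in Stat5b-/- against wt (24.2% and 22.0% of all tested genes), with a median log2 fold change of -0.27. Hspa5, the chaperone BiP, was at 0.535-fold (319.5 ± 58.2 against 598 ± 13.1 normalised CPM, SD, n = 3, adjusted p = 6.1e-05 with edgeR), and P4hb, a protein disulfide isomerase, at 0.618-fold (adjusted p = 5.14e-05 with edgeR). The 2 higher genes were Sec61a1, a translocation channel subunit (1.58-fold), and Uggt1, a glycoprotein folding sensor (1.31-fold). In Stat5a-/- the same 2 genes were higher (19.8% of all tested genes) and P4hb (0.800-fold) was the only one of the 16 that was lower, where 16.3% of all tested genes were. Set against Stat5a-/-, 7 of the 16 were lower in Stat5b-/- (17.5% of all tested genes) and 0 higher (16.4%), with Pdia6 at 0.604-fold (adjusted p = 0.001, edgeR).

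Of 12 genes of peptide supply, the proteasome subunits and peptidases that make or destroy peptides, Stat5b-/- exceeded wt for 5 and fell below it for 4, and Stat5a-/- did so for 4 and 1, where 24.2% and 22.0% of all tested genes did in Stat5b-/- and 19.8% and 16.3% in Stat5a-/-. Psmb9, an immunoproteasome subunit encoded next to Tap1, was 4.36-fold higher in Stat5b-/- (158 ± 8.07 against 36.3 ± 3.02 normalised CPM, SD, n = 3, adjusted p = 4.37e-09 with edgeR) and 3.74-fold higher in Stat5a-/- (adjusted p = 1.3e-08). Psmb8, another immunoproteasome subunit of the same region, rose by less, 1.71-fold and 1.82-fold. Of the 4 genes higher in Stat5a-/-, Psmb9, Psmb8 and Lnpep lie on chromosome 17, whose tested genes had a median log2 fold change of 0.53 there, beside 1.90, 0.86 and 0.39 for the 3, and 56.1% of the tested genes of that chromosome were higher there. Lnpep, an aminopeptidase, was named after its value was seen. The cytosolic peptidases Lap3 (0.594-fold, adjusted p = 5.33e-05, edgeR) and Thop1 (0.613-fold, adjusted p = 0.0087, edgeR) were lower in Stat5b-/-, and Lap3 was also lower in Stat5a-/- (0.719-fold, adjusted p = 0.00231, edgeR). The 1 gene that differed between the knockout lines was Npepps, an aminopeptidase, at 0.814-fold in Stat5b-/- (adjusted p = 0.0431, edgeR).

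Among 16 regulators of class I transcription, 8 passed as higher and 0 as lower in Stat5b-/- against wt, and 3 and 1 in Stat5a-/-. The shares of all tested genes were 24.2% and 22.0% in the former and 19.8% and 16.3% in the latter, so the number higher in Stat5a-/- was at the background. Irf1, an interferon-induced activator, was 3.06-fold higher in Stat5b-/- (66.1 ± 2.87 against 21.6 ± 0.388 normalised CPM, SD, n = 3, adjusted p = 2.2e-08 with edgeR) and 1.98-fold higher in Stat5a-/- (adjusted p = 2.87e-06). Irf9, an interferon regulatory factor, was 2.60-fold higher in Stat5b-/- (adjusted p = 3.25e-07, edgeR), while in Stat5a-/- its log2 fold change was 0.24 (adjusted p = 0.104). The difference between the knockout lines itself passed for Irf9 (2.20-fold, adjusted p = 4.04e-06, edgeR). In that direct comparison 7 of the 16 were higher (16.4% of all tested genes) and 1, the NF-kappaB subunit Rela (0.735-fold, adjusted p = 0.0454, edgeR), was lower in Stat5b-/-. In Stat5a-/- against wt, Rela on chromosome 19 was 1.46-fold higher (adjusted p = 0.0153, edgeR) and Irf8, an interferon regulatory factor of blood cells, was at 0.628-fold (adjusted p = 0.00145). Tested genes of chromosome 19 had a median log2 fold change of 0.41 in Stat5a-/- against wt, beside 0.55 for Rela. Between the knockout lines their median was -0.43, beside -0.445 for Rela.

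Of 10 genes that act on the turnover of class I molecules or of proteins of the endoplasmic reticulum, 9 were tested, of which 3 were higher and 2 lower in Stat5b-/- (24.2% and 22.0% of all tested genes) and 4 were higher and 2 lower in Stat5a-/- (19.8% and 16.3%). In Stat5b-/- these numbers are near the background. Wwp2, a ubiquitin ligase, was 1.67-fold higher in Stat5b-/- (adjusted p = 0.000393, edgeR) and 1.38-fold higher in Stat5a-/- (adjusted p = 0.0113), and Susd6, its partner in removing class I from the surface, was 1.66-fold higher in Stat5b-/- (adjusted p = 0.000137) and also passed in Stat5a-/- (log2 fold change 0.36, adjusted p = 0.0235). Tmem127, the third part of that complex, was 1.39-fold higher in Stat5a-/- (adjusted p = 0.0128, edgeR) and also passed in Stat5b-/- (log2 fold change 0.70, adjusted p = 0.000744). March9, a membrane ubiquitin ligase, was lower in both lines but had few reads, with 0.657 ± 0.201 normalised CPM in Stat5b-/- and 1.30 ± 0.417 in Stat5a-/- against 2.68 ± 0.615 in wt (SD, n = 3). Ube2g2, a ubiquitin-conjugating enzyme, was at 0.799-fold in Stat5b-/- (adjusted p = 0.0294, edgeR) and 0.792-fold in Stat5a-/- (adjusted p = 0.0312). Of the 9, 1 was higher in Stat5b-/- than in Stat5a-/- and 2 were lower (16.4% and 17.5% of all tested genes). The higher one was Susd6 (1.30-fold, adjusted p = 0.0195, edgeR), and the lower ones were the ubiquitin ligase Syvn1 (0.612-fold, adjusted p = 0.0137) and the ubiquitin-conjugating enzyme Ube2j1 (0.786-fold, adjusted p = 0.0136). Syvn1 lies on chromosome 19, whose tested genes had a median log2 fold change of -0.43 in this comparison, beside -0.71 for Syvn1. Of 28 non-classical class I genes 13 passed the filter on low counts. H2-Q2, at 0.103 normalised CPM in wt, 0.187 in Stat5a-/- and 2.10 in Stat5b-/-, could pass it only through the line where it was high, so the number of these genes that were higher is not given. H2-Q6 had 10.6 ± 1.93 normalised CPM in wt, 16.1 ± 2.78 in Stat5a-/- and 143 ± 3.79 in Stat5b-/- (SD, n = 3), and H2-Q4 was 4.10-fold higher in Stat5a-/- than in wt. These genes also lie on chromosome 17 and share sequence with each other, so that their counts are uncertain.

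**Figure D5:**
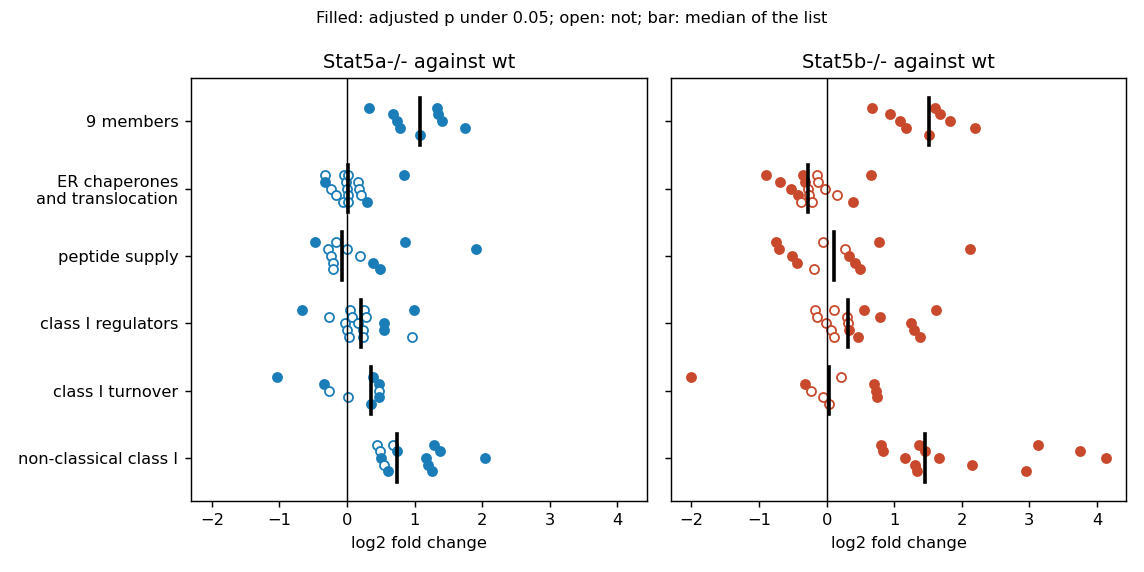
Log2 fold change (x axis) of the 9 members and of the tested genes of the 5 lists (rows) in Stat5a-/- and Stat5b-/- against wt; filled points have an adjusted p under 0.05 (edgeR) and the black bar is the median. The members lie to the right (medians 1.08 and 1.51) and the chaperones centre on 0.01 and -0.27; the non-classical row holds only the 13 of 28 genes that passed the filter on low counts, so no count is read from it.

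The T cell markers moved in the same order as several members. In Stat5b-/- against wt 16 of 16 of them were higher (24.2% of all tested genes), in Stat5a-/- 8 of 16 (19.8%), and in Stat5b-/- against Stat5a-/- 14 were higher (16.4%) and 1 lower (17.5%). The sums were 1038 ± 161 normalised CPM in wt, 1661 ± 123 in Stat5a-/- and 2422 ± 434 in Stat5b-/- (SD, n = 3). Of the 10 B-lineage markers 6 were higher and 2 lower in Stat5b-/- against wt (24.2% and 22.0% of all tested genes). In Stat5a-/- against wt 7 were higher and 1 lower (19.8% and 16.3%). Marker sums of myeloid, NK and dendritic cells were far lower than those of T cells. They were at most 10.7 for 10 myeloid genes, 83.0 for 7 NK cell genes and 9.39 for 5 dendritic cell genes in a library. The mean sums in wt, Stat5a-/- and Stat5b-/- were 5.32, 5.64 and 10.3 for the myeloid genes, 38.4, 41.0 and 67.8 for the NK cell genes and 3.63, 4.503 and 7.42 for the dendritic cell genes. These means were also highest in Stat5b-/-, but the NK cell sums of wt (29.6 to 45.3) and Stat5b-/- (44.8 to 83.0) overlapped. Of 5 tested NK cell genes 4 were higher and 1 was lower in Stat5b-/- against wt (24.2% and 22.0% of all tested genes). The lower one was Klrb1c, with means of 10.3 in wt and 1.63 in Stat5b-/-. The part of the B-lineage, myeloid, NK and dendritic cell markers in the results was not tested. The T cell sum follows the lines and so is not independent of the differences between them. With it as a covariate, H2-K1, H2-D1, Tap1, Tap2, Tapbp, Tapbpl and Nlrc5 remained higher in both knockout lines than in wt, and B2m and Erap1 did not. Of the members that remained, all but Tapbpl had a larger log2 fold change with it in Stat5b-/- against wt. The largest moves up were those of H2-D1 (from 1.67 to 2.40) and Tap2 (from 0.94 to 1.46). Whether the T cell transcripts came from other cells or from the lines themselves was not tested.

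The genes whose pattern over the 9 libraries was most like that of a member were found by the root mean square difference of log2(normalised CPM + 1), centred per gene. The added 1 shrinks the changes of genes at low levels, so a low gene can be close on this measure with a larger fold change. Closest to H2-K1 were Ahr, a ligand-activated transcription factor (difference 0.0859), Itpr1, a calcium channel of the endoplasmic reticulum (0.0946), and Sept1, a septin (0.103). Closest to B2m were Nabp1 (0.0867), Ccng1 (0.0939) and Tnfrsf1a, a TNF receptor (0.105). Closest to Nlrc5 were Lynx1 (0.107), whose log2 fold changes against wt were larger at 3.45 in Stat5b-/- and 2.15 in Stat5a-/-, Galnt10, a glycosyltransferase (0.1205), and Ptger2, a prostaglandin E2 receptor (0.125). None of these is a class I gene, and none lies on chromosome 17.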

How the data were processed

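Per the labels and the study's methods, polyA RNA of 3 mouse BCR/ABLp185+ lines, each in 3 technical replicates, was sequenced as 50 bp single-end reads (Lexogen SENSE kit). The authors trimmed the reads with Trimmomatic, mapped them with STAR to GRCm38 and counted them with featureCounts 1.5.1 on GENCODE M13 genes. They deposited these read counts without normalization. By default this counter uses no strand and drops reads that map to several places or to overlapping genes. Human samples were not analysed here.

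Symbols and GC content came from GENCODE M21 (50376 of 50686 genes matched), and exon lengths from the authors' counts on GENCODE M13. No pair of libraries held identical counts, and replicates differed by more than sampling noise (chi-square per degree of freedom from 5.07 to 31.8). Counts of the 9 libraries were normalised by TMM factors, and edgeR 4.0.16 was run in R 4.3.3 (filterByExpr, 13852 genes, glmQLFit and glmQLFTest, Benjamini-Hochberg adjustment over all of them). A gene was called at an adjusted p under 0.05, and past 2-fold at an absolute log2 fold change above 1. Depth was 11948136 to 19016396 counts, and without molecular identifiers the reads are no independent molecules. Standard errors were obtained by dividing the absolute log2 fold change by the root of the F statistic.

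The members, lists and tests were chosen with earlier results of these data known. All members were named. List genes were named from the 2 largest passing changes in each direction of a comparison (1 regulator is not reported here), and the 3 genes most alike were found for H2-K1, B2m and Nlrc5. Promoters came from RefSeq (GRCm38.p6). The alternatives were DESeq2 1.42.0, RLE factors, no filter, at least 10 counts on average, only the compared lines, each library left out, the replicate number as a block, the T cell marker sum as a covariate, chromosome 17 factors and an adjusted p under 0.01. An offset for GC content (loess, span 0.5), also with the block, was added after seeing the data. The steps were tested on simulated counts.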

Additional observations from a re-analysis of the deposited data

How the results depend on the processing

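Over the 9 members in 3 comparisons, 489 values under the alternatives kept their direction and side of the threshold, 24 lost their call, 9 gained one and 6 changed sign. The sign changes were all between the knockout lines. H2-D1, at -0.07 on the log2 scale and between -0.155 and 0.0961 with single libraries left out, became 0.10 without Stat5a-/- replicate 3, 0.02 without Stat5b-/- replicate 3, 0.26 with the T cell marker covariate and 0.39 with chromosome 17 factors. B2m became -0.0287 with that covariate, and Tapbp 0.21 with chromosome 17 factors. With those factors 1 rather than 4 of the 5 members on chromosome 17 was past 2-fold in Stat5a-/- against wt, and 4 rather than 1 were higher in the direct comparison. The GC offset raised the members higher in Stat5b-/- than in Stat5a-/- from 4 to 7 of 9, and with the replicate block added it gave 5, with B2m (adjusted p = 0.101, edgeR) and Erap1 (0.0772) not passing.

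With single libraries left out, 9 members stayed higher in Stat5b-/- against wt and 8 to 9 in Stat5a-/- against wt, and 6 to 8 and 4 to 5 were past 2-fold. Between the knockout lines 3 to 4 were higher. With RLE factors Erap1 missed the threshold in Stat5a-/- against wt (adjusted p = 0.0508, edgeR), and with only the compared lines it missed it between the knockout lines (adjusted p = 0.0658). With no filter on low counts B2m passed between the knockout lines (adjusted p = 0.00426). The cause of these changes was not tested.

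The replicate numbers did not pair the libraries. Deviations from the line means correlated over genes by -0.126 on average for 9 pairs of the same number (from -0.628 to 0.347) and by 0.0623 for 18 pairs of different numbers. With the number as a replicate block, Erap1 lost its call in Stat5a-/- against wt (0.33 on the log2 scale, adjusted p = 0.0847, edgeR) and between the knockout lines (0.34, adjusted p = 0.0853), and no other member's call changed. The block also left 1 rather than 2 chaperone genes higher in Stat5a-/-, 0 rather than 1 peptide supply gene and 0 rather than 1 regulator lower in Stat5b-/- than in Stat5a-/-, and 1 rather than 2 turnover genes lower in each knockout line against wt. DESeq2 gave 2 rather than 1 chaperone genes lower in Stat5a-/- against wt, and 2 rather than 1 peptide supply genes and regulators lower in Stat5b-/- than in Stat5a-/-.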
